A study of Homo sapiens with 9 samples.

Results

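The genes described here are the Fc gamma receptors of MOLM-13 cells with their signalling chain: FCGR1A, FCGR2A, FCGR2B, FCGR2C, FCER1G, FCGRT and SYK. They were chosen by gene symbol, near-identical paralogues included, and each matched 1 entry, 7 of the 56541 genes in the deposited table. They were chosen with earlier results of these data known, in which the values of FCGR2C stood out both after BCLAF1 knock-down and in the BCLAF1 precipitate. FCGR2C is therefore described with no test, and p-values of the other members come from fits across all genes.

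MOLM-13 is a human acute myeloid leukaemia line. There were 3 groups of 3 libraries of total RNA: RNA-seq under a control short hairpin RNA (shCONTROL), RNA-seq under one directed at BCLAF1 (shBCLAF1), and RNA recovered with BCLAF1, a nuclear RNA-binding protein, from shCONTROL cells (RIP). All cells, the controls included, had 4 days of doxycycline at 200 ng/µL per the labels, and the RIP used more cells per sample. The labels name no mock precipitation, so the RIP was compared with shCONTROL RNA-seq, and they do not say whether replicates were separate cultures, so p-values measure only the spread between these samples.

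Fc gamma receptors bind the constant part of IgG antibodies and link antibody-coated particles to phagocytes. Activating receptors signal through an ITAM, a paired tyrosine motif that Src-family kinases phosphorylate and that then recruits the kinase SYK. FCGR1A (CD64), the high-affinity receptor, borrows its ITAM from the gamma chain encoded by FCER1G, whereas FCGR2A (CD32A) carries an ITAM in its own tail. FCGR2B (CD32B) carries the inhibitory ITIM, which recruits phosphatases. FCGR2C joins an FCGR2B-like front to an FCGR2A-like tail, and FCGRT, the neonatal Fc receptor, pairs with beta-2-microglobulin and returns IgG and albumin from endosomes to the cell surface.

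In the GRCh38.p14 RefSeq table, 5 of the members lie on chromosome 1. FCGR1A spans 149782694 to 149800609 and FCER1G 161215295 to 161219245. Further along, FCGR2A spans 161505457 to 161524048, FCGR2C 161581339 to 161601220 and FCGR2B 161647243 to 161678654. FCGRT lies on chromosome 19 (49512661 to 49526428) and SYK on chromosome 9 (90801600 to 90898549). RefSeq lists FCGR2C as a transcribed pseudogene and the other 6 as protein-coding.

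RefSeq promoter entries matched 6 of the 7 members. The 250 bases before the first listed start (all on the plus strand) are shown for the activating receptors FCGR1A and FCGR2A, which share a stretch of sequence, and for FCGRT and SYK, the members that were higher after knock-down. Capitals mark GAGGAA on either strand, the core recognised by PU.1 (SPI1), the myeloid transcription factor, and TTCNNNGAA, the core of interferon-responsive GAS elements; the motifs did not overlap.
FCGR1A, chr1:149782444-149782693: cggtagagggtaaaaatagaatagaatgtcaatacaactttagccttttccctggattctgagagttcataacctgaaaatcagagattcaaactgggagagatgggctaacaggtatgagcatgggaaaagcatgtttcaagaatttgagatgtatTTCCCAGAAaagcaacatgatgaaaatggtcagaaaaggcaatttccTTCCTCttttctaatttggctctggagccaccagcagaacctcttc
FCGR2A, chr1:161505207-161505456: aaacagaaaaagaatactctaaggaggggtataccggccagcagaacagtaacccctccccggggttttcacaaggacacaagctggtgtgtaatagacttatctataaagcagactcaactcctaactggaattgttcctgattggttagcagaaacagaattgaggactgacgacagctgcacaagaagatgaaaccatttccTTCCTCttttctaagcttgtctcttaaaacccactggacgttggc
FCGRT, chr19:49512411-49512660: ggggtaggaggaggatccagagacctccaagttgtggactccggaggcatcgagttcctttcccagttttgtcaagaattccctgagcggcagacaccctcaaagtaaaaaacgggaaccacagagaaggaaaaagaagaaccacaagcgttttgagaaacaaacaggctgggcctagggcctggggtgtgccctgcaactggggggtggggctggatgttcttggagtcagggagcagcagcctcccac
SYK, chr9:90801350-90801599: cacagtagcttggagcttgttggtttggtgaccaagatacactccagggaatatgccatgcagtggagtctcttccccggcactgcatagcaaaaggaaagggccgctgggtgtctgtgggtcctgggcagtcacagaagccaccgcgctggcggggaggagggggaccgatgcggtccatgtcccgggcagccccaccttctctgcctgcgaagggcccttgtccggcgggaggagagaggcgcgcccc

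The longest run shared by the FCGR1A and FCGR2A windows was ATTTCCTTCCTCTTTTCTAA, 20 bases that start at -52 in FCGR1A and at -51 in FCGR2A relative to the gene start. Of 35116 promoter windows of the same length, 2 held this run, those of FCGR1A and FCGR2A. It contains the single GAGGAA match of each window, a motif found in 23.6% of all windows. FCGR1A also held 1 TTCNNNGAA match, at -93, a motif found in 6.57% of all windows. The windows of FCGRT, FCER1G and the first SYK start held neither. Later SYK starts held 2 and 1 GAGGAA matches, and the FCGR2B starts 0 and 2. The second FCGR2B start also held 2 TTCNNNGAA matches. These matches describe sequence only.

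Libraries held 25819144 to 36635268 estimated counts, so 3 counts equalled 0.0819 to 0.116 CPM (counts scaled to library size), a figure for counting error only. A 0 in this table could stand beside 100 or more counts in a replicate, which happened in 165 to 226 genes per group, so genes are called listed at 0 rather than absent. The targeted BCLAF1 fell from 322 ± 8.41 to 113 ± 12.5 CPM (SD, n = 3 per group) with knock-down. Of 15 monocytic and myeloid markers, 2 (CD14 and FCN1) were listed at 0 in all libraries, while SPI1, CEBPA, CD33 and LYZ were present at 249, 431, 93.7 and 729 CPM in shCONTROL. Of the markers of other cells, 6 of 8 for B cells, 7 of 10 for T and NK cells and 7 of 8 for mast cells and basophils were listed at 0 throughout; MS4A1, CD3E and FCER1A were among these.

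**Figure D1:**
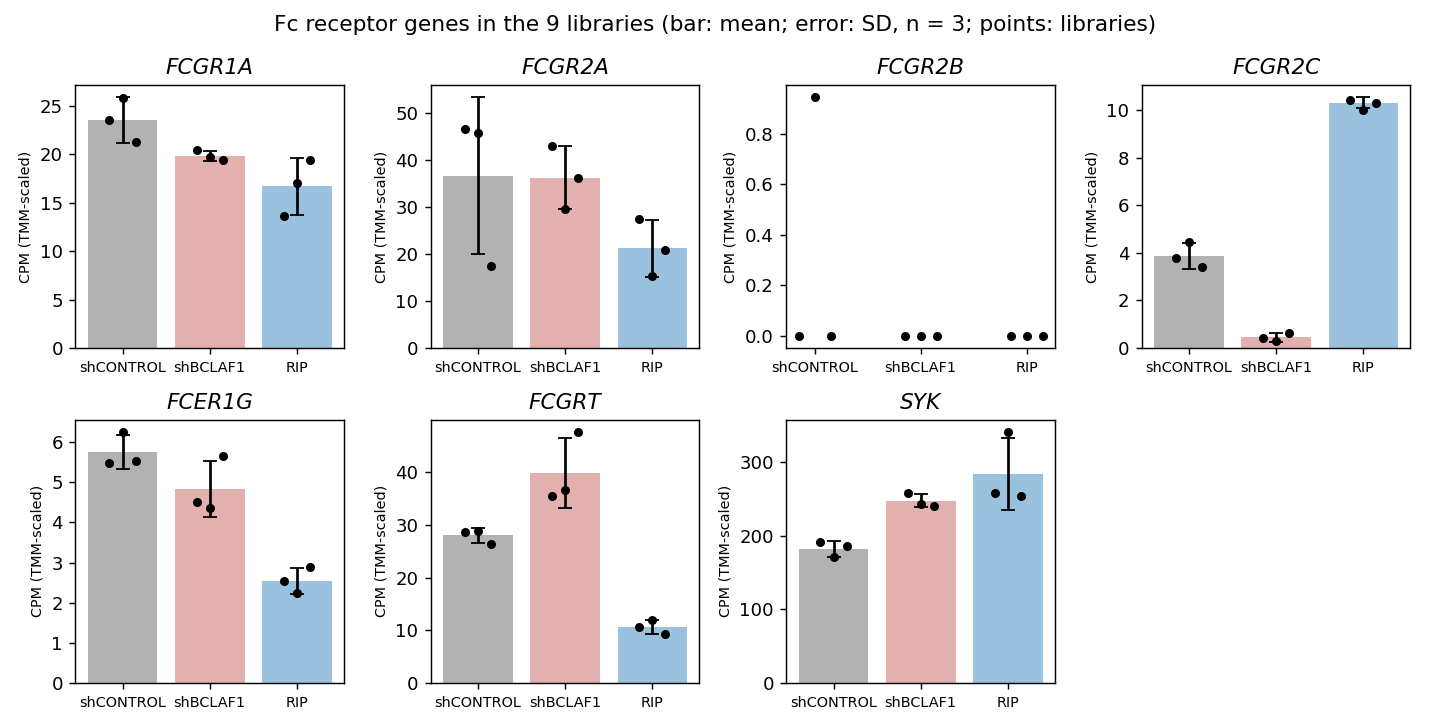
Level of each Fc receptor gene in CPM (TMM-scaled, y axis) in the 3 groups (x axis); bars are means, error bars SD (n = 3) and points libraries, with points alone for FCGR2B. FCGR2C is lowest in shBCLAF1 and highest in RIP, FCER1G and FCGRT are lowest in RIP, and shCONTROL replicate 3 is low in FCGR2A.

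The level plot of the 7 genes shows that their patterns over the groups differed. FCGR2C was ordered shBCLAF1, shCONTROL, RIP and FCGRT was ordered RIP, shCONTROL, shBCLAF1, in both cases with no overlap between any groups. Across all genes tested, shCONTROL did not overlap shBCLAF1 in 49.3% and did not overlap RIP in 67.1%. The FCGR2C values were among those known when the genes were chosen. SYK was lowest in shCONTROL, with overlapping values in shBCLAF1 and RIP. FCER1G was lowest in RIP, with overlapping values in shCONTROL and shBCLAF1. FCGR1A was ordered RIP, shBCLAF1, shCONTROL, and the highest RIP library nearly reached the lowest shBCLAF1 library. Levels of single members are compared within a gene, since counts also grow with transcript length. Sums and shares over several genes, given further on, add counts or CPM with no correction for length.

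After BCLAF1 knock-down, the members did not move together. Of the 5 members tested other than FCGR2C, SYK and FCGRT rose and the receptor genes FCGR1A and FCGR2A and the chain FCER1G did not pass the test. Across all 16961 genes tested, 15.5% rose and 16.9% fell by edgeR's quasi-likelihood test with a Benjamini-Hochberg adjusted p below 0.05, or 32.3% in all. In bulk RNA, fewer cells of a kind and less RNA per cell cannot be told apart.

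FCGR1A held 830, 873 and 762 counts in shCONTROL replicates 1, 2 and 3, and 775, 745 and 713 in shBCLAF1. Scaled for depth, this was 23.5 ± 2.33 CPM against 19.8 ± 0.481 (SD, n = 3 each). Every shBCLAF1 library lay under every shCONTROL library, as happened in one direction or the other in 49.3% of all genes. The log2 fold change of -0.24 (SE 0.09) had an adjusted p of 0.0813; it passed with DESeq2 (adjusted p 0.0294) and without shCONTROL replicate 3 (0.0423), within a range of 0.0294 to 0.305 over 13 alternatives. Near-identical copies can exchange reads with this gene. The copy FCGR1CP held 97 to 111 counts in shCONTROL and 92 to 99 in shBCLAF1. FCGR1BP varied from 128 to 413 within shCONTROL alone and held 132 to 196 in shBCLAF1, with overlapping groups. Its log2 fold change was -0.97 (adjusted p 0.152).

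FCGR2A held 1641, 1545 and 627 counts in shCONTROL and 1633, 1116 and 1323 in shBCLAF1. The third shCONTROL library was thus far under the other two, and the groups overlapped. The means of 36.6 ± 16.6 and 36.2 ± 6.72 CPM gave a log2 fold change of -0.01 with SE 0.38 (adjusted p 0.988). Its sign turned with the scaling: it was 0.04 with total counts in place of TMM. Without shCONTROL replicate 1 it was 0.21, and without shCONTROL replicate 3 it was -0.34, so no direction can be given at this spread.

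FCGR2B was listed at 0 in 8 of 9 libraries and at 32 counts, or 0.948 CPM, in shCONTROL replicate 2. It passed the filter on low counts in neither comparison, and no fold is given. The other low-affinity receptor genes FCGR3A and FCGR3B (CD16) were listed at 0 in all 9 libraries.

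FCGR2C held 133, 150 and 122 counts in shCONTROL and 16, 11 and 23 in shBCLAF1. All shBCLAF1 libraries lay far under all shCONTROL libraries, at 0.446 ± 0.170 against 3.87 ± 0.531 CPM (SD, n = 3 each), which is 11.5% of the control mean. These groups did not overlap in 49.3% of all genes tested. The log2 fold change was -3.10 (SE 0.30), given as a description because this value was among those known when the genes were chosen. It ran from -3.42 to -2.87 over 13 alternatives.

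Because FCGR2A, FCGR2B and FCGR2C are close copies, the authors' counting could have moved reads between them, and their sum was computed as well. The summed counts were 1774, 1727 and 749 in shCONTROL, 1649, 1127 and 1346 in shBCLAF1, and 967, 718 and 897 in RIP. Scaled for depth the sums were 40.7 ± 17.2, 36.6 ± 6.80 and 31.5 ± 6.26 CPM (SD, n = 3 each), and all 3 groups overlapped. The shCONTROL group overlapped the others only through replicate 3, while shBCLAF1 and RIP overlapped in any case. The share of FCGR2C in the sum was 7.50%, 8.69% and 16.3% in shCONTROL, 0.970%, 0.976% and 1.71% in shBCLAF1, and 27.5%, 39.4% and 33.2% in RIP. The order of these shares follows from the FCGR2C counts, which were known when the genes were chosen, so they are a description.

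**Figure D2:**
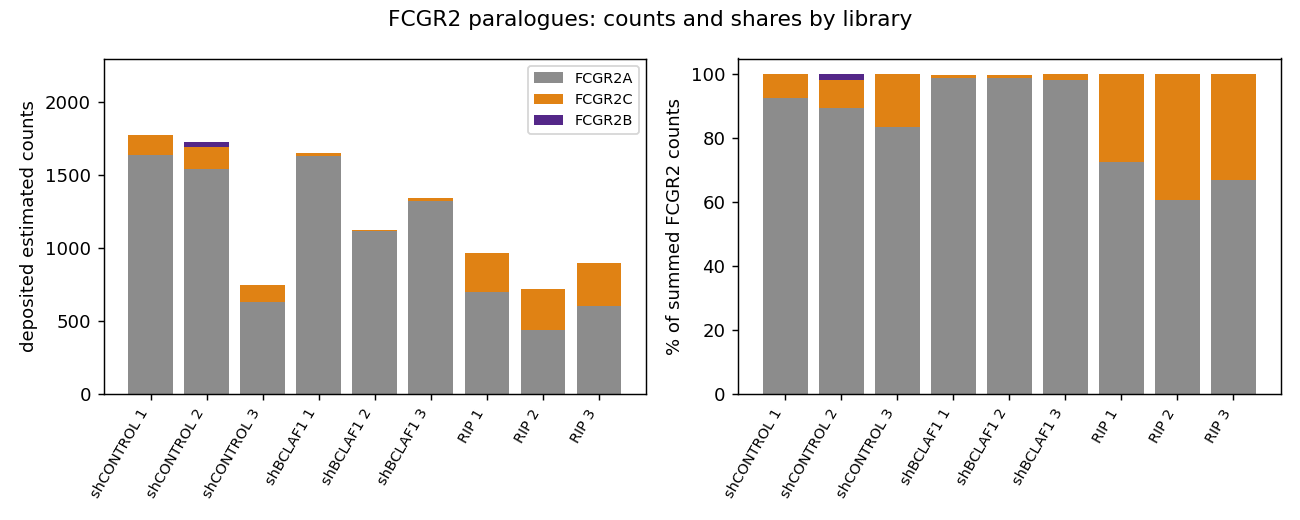
Deposited estimated counts of FCGR2A, FCGR2C and FCGR2B stacked by library (left, y axis in counts) and the same as percent of their sum (right). FCGR2C takes 7.50% to 16.3% of the sum in shCONTROL, under 2% in shBCLAF1 and 27.5% to 39.4% in RIP, while shCONTROL replicate 3 has the lowest sum of its group.

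HSPA7, a heat-shock pseudogene, lies between FCGR2C and FCGR2B at 161606172 to 161608550, and was looked at after its values were seen. It held 158, 127 and 160 counts in shCONTROL, 0, 0 and 27 in shBCLAF1, and 156, 189 and 131 in RIP. All shBCLAF1 libraries lay under all shCONTROL libraries, and 49.3% of all genes tested did not overlap between these groups. The log2 fold change of HSPA7 was -4.10 with an adjusted p of 0.0561, which reached 0.134 among the alternatives. Without shBCLAF1 replicate 3 that group holds only counts of 0, so no value is given for that fit. Its close copy HSPA6, beside FCGR2A, held 0, 34 and 37 counts in shCONTROL and 36, 0 and 37 in shBCLAF1. Of the 10 chromosome 1 neighbours tested, 2 rose and 1 fell, against 15.5% and 16.9% of all genes tested. TOMM40L rose by 0.75 on the log2 scale (adjusted p 9.76e-04) and FCRLB fell by 0.40 (0.0389). FCRLB lost this call in 9 of 13 alternatives, each fit without 1 library included.

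**Figure D3:**
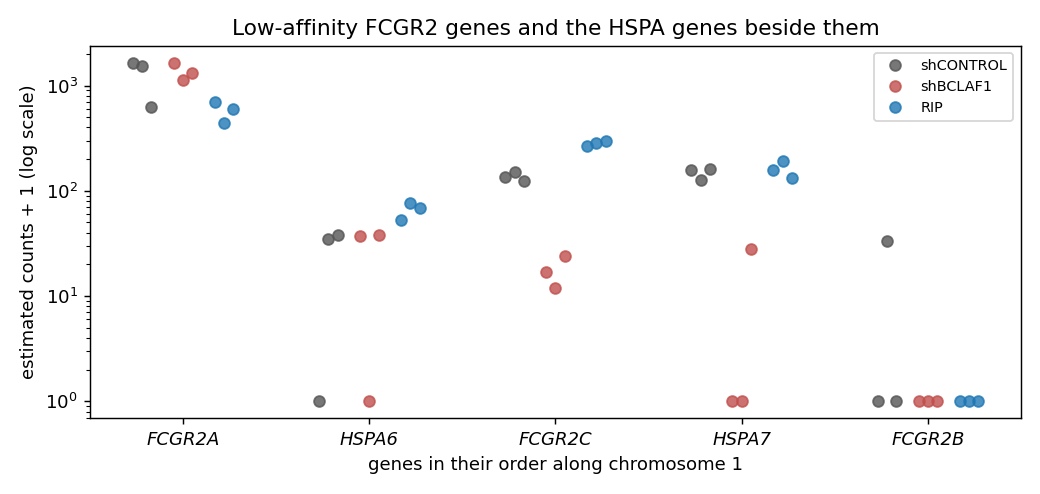
Estimated counts plus 1 (log scale, y axis) of the FCGR2 genes and the HSPA genes beside them, in their order along chromosome 1 (x axis), with 1 point per library coloured by group. FCGR2C and HSPA7 are both low in the 3 shBCLAF1 libraries, at 11 to 23 and 0 to 27 counts, while FCGR2A and HSPA6 overlap between shCONTROL and shBCLAF1.

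FCER1G held 194, 211 and 199 counts in shCONTROL and 172, 165 and 207 in shBCLAF1. The groups overlapped, at 5.76 ± 0.424 and 4.84 ± 0.700 CPM (SD, n = 3 each), with a log2 fold change of -0.25 with SE 0.14 (adjusted p 0.233).

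FCGRT held 1011, 977 and 946 counts in shCONTROL and 1347, 1387 and 1744 in shBCLAF1. All shBCLAF1 libraries were higher, at 39.9 ± 6.68 against 28.0 ± 1.43 CPM, and the third stood apart from its group. Groups did not overlap in 49.3% of all genes tested. The rise of 0.52 on the log2 scale (SE 0.12, adjusted p 0.0217) was lost with a replicate block (0.0636) and without shCONTROL replicate 1, 2 or 3 (0.0641, 0.0608 and 0.0814), within a range of 1.97e-04 to 0.0814 over 13 alternatives. B2M, its light chain, had a log2 fold change of 0.06 (adjusted p 0.578), which was -0.00222 without shBCLAF1 replicate 1. Of 7 tested partners of FCGRT, B2M included, the endosome coat genes VPS26A (0.68) and SNX1 (0.15) rose and RAB11A, the recycling GTPase, fell by 0.59. Across all genes tested, 15.5% rose and 16.9% fell. The call of SNX1 was lost when shCONTROL replicate 3 was left out (0.0614) and in a single fit of all 9 libraries (0.532).

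SYK held 6752, 5761 and 6673 counts in shCONTROL and 9818, 9239 and 8818 in shBCLAF1. The groups were well apart, at 182 ± 10.7 and 248 ± 9.29 CPM (SD, n = 3 each), or 136% of the control. In 49.3% of all genes tested, these groups did not overlap. The rise of 0.44 on the log2 scale (SE 0.05, adjusted p 0.00194) passed in all 13 alternatives (0.41 to 0.50, adjusted p 3.04e-13 to 0.0446). Markers of the myeloid list moved in the same comparison: LYZ, MNDA, SPI1, CD33 and CD68 rose, CD86 and ITGAX fell, and the summed level of the list went from between 2020 and 2120 CPM to between 3940 and 4380. LYZ alone went from 729 to 2640 CPM. Of the markers of other cells, GATA2 (mast cell list) fell by 1.00 and NCAM1 (T and NK list) by 0.33, the latter with no call in a single fit of all 9 libraries (adjusted p 0.0625). GATA2 was the only gene of its list above 0, and went from between 134 and 142 CPM to between 66.2 and 72.8. The summed level of the T and NK list went from between 130 and 136 to between 102 and 119, and that of the B cell list from between 2.86 and 3.32 to between 2.29 and 2.80. The part of these changes in the rise of SYK and FCGRT was not tested. The call of ITGAX was lost without any 1 of the shBCLAF1 libraries (0.0604 to 0.0713) and in a single fit of all 9 libraries (0.0662), in which SPI1 did not pass either (0.169).

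Of 9 other Fc receptor genes tested, 3 rose and 2 fell, against 15.5% and 16.9% of all genes tested. A further 12 of the list were listed at 0 in all libraries. FCAR, the IgA receptor, which also signals through FCER1G, held 75, 52 and 88 counts in shCONTROL and 528, 451 and 390 in shBCLAF1, a rise of 2.58 on the log2 scale (adjusted p 4.78e-04). FCER2 (CD23), the low-affinity IgE receptor, rose by 1.60 (adjusted p 3.40e-04), from 10.7 ± 1.46 to 32.4 ± 1.63 CPM. TRIM21, a cytosolic antibody receptor, rose by 0.92 (adjusted p 1.41e-04). FCMR, the IgM receptor, fell by 1.72 (adjusted p 3.40e-04), from 22.5 ± 2.81 to 6.78 ± 0.577 CPM, and FCRLB is given above. FCAR, FCER2, TRIM21 and FCMR were named from genes whose groups did not overlap, as was so for 49.3% of all genes tested.

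Of the 11 tested genes that carry ITAMs or use ITAM chains, 3 rose and 1 fell, against 15.5% and 16.9% of all genes. TYROBP (DAP12), the other ITAM adaptor of myeloid cells, rose by 0.59 (adjusted p 7.65e-04), from 47.2 ± 1.20 to 70.8 ± 4.11 CPM. SIRPB1 (0.53) and CD300LB (0.87), receptors that pair with it, rose as well, and LILRA1 fell by 0.47, without a call in a single fit of all 9 libraries (adjusted p 0.0674). The median of the list was 0.26 on the log2 scale, against 0.02 for all genes.

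Of the 30 proximal kinases and adaptors tested, 4 rose and 11 fell, against 15.5% and 16.9% of all genes tested. Among the Src-family kinases that phosphorylate ITAMs, FYN fell by 0.97 (adjusted p 2.14e-04), from 62.9 ± 3.47 to 31.9 ± 0.673 CPM, and SRC rose by 0.85 (6.20e-04). LYN had a log2 fold change of 0.12 (adjusted p 0.0864), which passed without shBCLAF1 replicate 3 (0.0270), with DESeq2 (0.0346) and with total counts (0.0126), within a range to 0.685. FGR did not pass (-0.31, adjusted p 0.144). The adaptors GRB2 (-0.53) and CBL (-0.48), the latter a ubiquitin ligase that limits SYK signalling, fell, and the PI3-kinase genes PIK3R5 (1.07) and PIK3CB (0.69) rose. CBL had no call in a single fit of all 9 libraries (adjusted p 0.126). Without shBCLAF1 replicate 3, 7 genes of this list rose.

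Among 21 inhibitory receptors and phosphatases tested, 6 rose and 3 fell, against 15.5% and 16.9% of all genes tested. INPP5D (SHIP1), the phosphatase that acts below FCGR2B, fell by 0.24 (adjusted p 0.00592), from 385 ± 7.83 to 325 ± 11.7 CPM, a call lost in a single fit of all 9 libraries (0.433, the highest of its 13 alternatives, which start at 4.94e-09). PAG1, an adaptor that holds Src kinases inactive, fell by 0.97, and LILRB4 fell by 0.20, a call lost in 7 alternatives (adjusted p up to 0.239), among them those that leave out shCONTROL replicate 1 or 2, or shBCLAF1 replicate 2 or 3. PTPRJ (0.68), DOK2 (0.50) and CD33 (0.34) rose. PTPN6 (SHP-1) had a log2 fold change of 0.03 (adjusted p 0.641), which was -0.00703 without shBCLAF1 replicate 1.

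The actin machinery of the phagocytic cup moved mostly upwards, with 18 of 34 tested genes higher and 2 lower. Across all genes tested, 15.5% were higher and 16.9% lower. The median of the actin list was 0.21 on the log2 scale, against 0.02 for all genes. GSN (gelsolin) rose by 1.12 (adjusted p 8.92e-04), MYO10 by 0.63 and ACTR3, of the actin-nucleating Arp2/3 complex, by 0.43. PLD1 fell by 0.66 and ARF6 by 0.26, the latter losing its call when shCONTROL replicate 1 or 2 or shBCLAF1 replicate 2 was left out (0.0586 to 0.0686). In a single fit of all 9 libraries ARF6 (0.341) and MYO10 (0.145) did not pass, and 4 genes of this list rose and 1 fell.

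**Figure D4:**
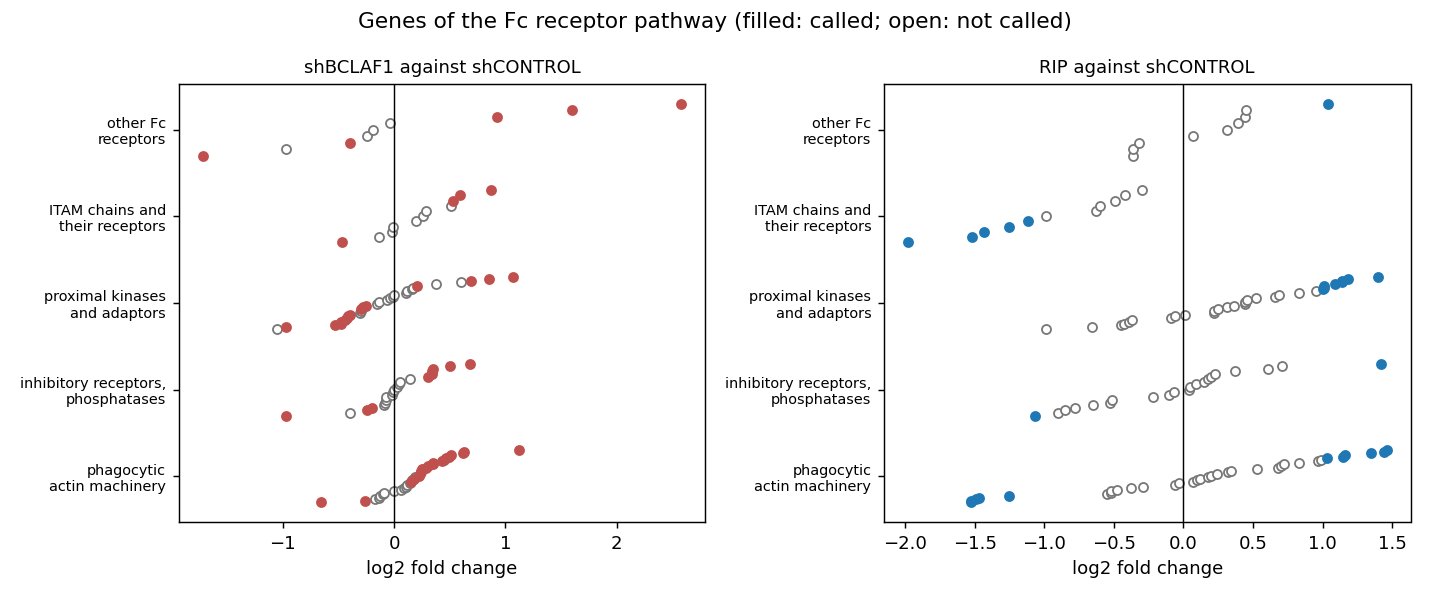
Log2 fold changes (x axis) of the tested genes of 5 lists of the Fc receptor pathway (rows), after knock-down (left) and in RIP (right); filled points passed an adjusted p of 0.05, in RIP also a log2 fold change of 1 or more in either direction. After knock-down 18 of 34 actin genes lie to the right as filled points, and in RIP 8 of 30 kinases and adaptors are filled on the right and 5 of 11 genes of the ITAM chain list on the left. Of all genes tested, 15.5% were higher after knock-down, and in RIP 11.1% were enriched and 13.6% depleted.

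In the RIP, the members split again. FCER1G and FCGRT were depleted, SYK was higher but under the minimum for enrichment, and FCGR1A was lower under the minimum for depletion. A gene was called enriched or depleted where the adjusted p was below 0.05 and the log2 fold change reached 1 in either direction, which 11.1% and 13.6% of the 16727 genes tested reached. Without the minimum, 24.6% were higher and 24.7% lower, 49.2% in all, and in 67.1% the groups did not overlap. With total RNA as the reference, binding and background of the precipitation cannot be told apart.

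FCGRT held 272, 338 and 268 counts in RIP, at 10.6 ± 1.33 CPM, against 28.0 ± 1.43 in shCONTROL (SD, n = 3 each). All RIP libraries lay under all shCONTROL libraries, and groups did not overlap in 67.1% of all genes tested. The log2 fold change of FCGRT was -1.40 with SE 0.13 (adjusted p 5.65e-04), and the gene was depleted in all 13 alternatives. Of its 7 tested partners, 2 were depleted, against 13.6% of all genes: B2M (-1.49, adjusted p 3.14e-04) and RAB5A (-1.09), an early-endosome GTPase. Without the minimum, 6 were lower and 1, SNX1 (0.90, adjusted p 0.00364), was higher, against 24.7% and 24.6% of all genes.

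FCER1G held 65, 63 and 83 counts in RIP, at 2.55 ± 0.326 CPM against 5.76 ± 0.424 in shCONTROL. The groups did not overlap, as in 67.1% of all genes tested. The log2 fold change of -1.18 (SE 0.18, adjusted p 0.00265) met the minimum in all 13 alternatives (-1.29 to -1.09). Of the 11 tested genes in the list of receptors and adaptors that carry or use ITAM chains, 5 were depleted as well and none was enriched. Of all genes tested, 13.6% were depleted and 11.1% enriched. TYROBP had a log2 fold change of -1.12 (adjusted p 8.19e-04), HCST (DAP10), an adaptor on that list that has no ITAM itself, -1.25 and OSCAR, a receptor that pairs with the gamma chain, -1.43. The median of the list was -0.99, against -0.05 for all genes.

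SYK held 6573, 9631 and 7318 counts in RIP, at 284 ± 49.0 CPM against 182 ± 10.7. All RIP libraries were higher, the second most. In 67.1% of all genes tested, RIP and shCONTROL did not overlap. The log2 fold change of SYK was 0.63 with SE 0.15 (adjusted p 0.0136). The adjusted p was above 0.05 without shCONTROL replicate 2 (0.0594) or 3 (0.0509) and under a replicate block (0.0537), within a range from 9.27e-05 to 0.0594. Of the 30 proximal kinases and adaptors, 8 were enriched and 0 depleted, against 11.1% and 13.6% of all genes tested. With total counts, and also without shCONTROL replicate 2 or RIP replicate 3, 1 was depleted. The median of the list was 0.44, against -0.05 for all genes. Without the minimum, 13 were higher and 4 lower, against 24.6% and 24.7% of all genes tested. LYN (1.18, adjusted p 0.00192), FYN (1.09), TEC (1.01) and VAV1 (1.40) were among the enriched. Enriched genes of this list numbered 4 without RIP replicate 2, without RIP replicate 3 and with total counts; FYN was then at 0.95 without RIP replicate 2 and 0.97 with total counts, TEC at 0.90 with total counts, and LYN fell just short of 1 without RIP replicate 3.

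FCGR1A held 346, 482 and 559 counts in RIP, at 16.7 ± 2.94 CPM against 23.5 ± 2.33. All RIP libraries were lower, a separation in one direction or the other that 67.1% of all genes tested showed. The log2 fold change of FCGR1A was -0.50 with SE 0.16 (adjusted p 0.0423). That p was above 0.05 without any 1 of the 3 shCONTROL libraries (0.0676 to 0.129) and without RIP replicate 1 (0.0735) or 2 (0.0752), and also with DESeq2's size factors (0.0543), no low-count filter (0.0508) or a replicate block (0.0825), within a range of 0.0143 to 0.129 over 13 alternatives.

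FCGR2A held 701, 435 and 599 counts in RIP, at 21.2 ± 6.06 CPM against 36.6 ± 16.6. The groups overlapped through shCONTROL replicate 3, with a log2 fold change of -0.79 with SE 0.41 (adjusted p 0.161). Without that library it was -1.13 and passed (adjusted p 0.0231); over 13 alternatives the adjusted p ran from 0.0231 to 0.374.

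FCGR2C held 266, 283 and 298 counts in RIP, at 10.3 ± 0.222 CPM against 3.87 ± 0.531 in shCONTROL, or 265% of it. The 3 RIP libraries agreed closely and lay above all RNA-seq libraries. The log2 fold change of 1.40 (SE 0.15) is a description, with a range of 1.29 to 1.50 over 13 alternatives.

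**Figure D5:**
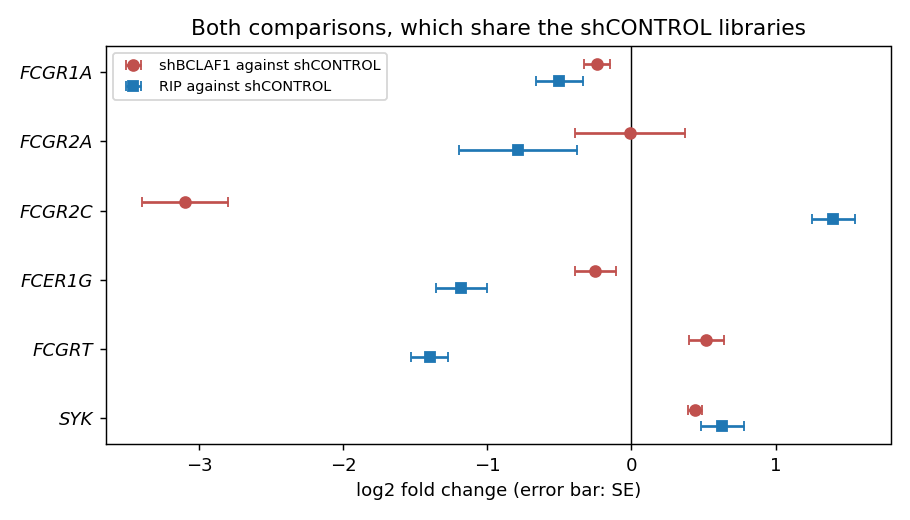
Log2 fold change with SE (x axis) of the 6 tested members (rows) after knock-down (circles) and in RIP (squares), both against the same shCONTROL libraries. FCGR2C lies at -3.10 and 1.40, FCGRT at 0.52 and -1.40, SYK at 0.44 and 0.63, and FCER1G at -0.25 and -1.18.

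Both comparisons used the same shCONTROL libraries, so the values of the members are given side by side in the plot of both fold changes and no relation between them was computed. Other pathway genes gave mixed directions in the RIP, in which 11.1% of all genes tested were enriched and 13.6% depleted. Among other Fc receptors, 1 of 9 was enriched, FCAMR (1.04), a receptor for IgA and IgM; it was under the minimum with total counts (0.92) and without shCONTROL replicate 3 (0.89) or RIP replicate 2 (0.96). Among inhibitory genes PECAM1 was enriched (1.42) and CD300A depleted (-1.07), the latter at -0.98 without RIP replicate 1. INPP5D (0.61, adjusted p 0.0537) and PTPN6 (-0.10, 0.466) were not called, nor was FGR (-0.09, 0.777). Of 34 actin genes, 6 were enriched, PAK1 (1.35), ELMO1 (1.16) and PRKCE (1.46) among them, and 5 were depleted, with MARCKSL1 (-1.47), ACTR3 (-1.53) and ARPC4 (-1.49) among them. Of the 10 chromosome 1 neighbours tested, 3 were depleted, SDHC (-1.59) and CFAP126 (-1.02) among them. CFAP126 lost its call without RIP replicate 1 or 3 and without any 1 of the shCONTROL libraries (adjusted p 0.0681 to 0.114). Of the myeloid markers, MNDA was enriched (1.39), and LYZ (-3.97) and CD4 (-1.54) were depleted. Summed, the myeloid list lay between 1550 and 1650 CPM in RIP, the B cell list between 1.35 and 2.72, the T and NK list, with NKG7 depleted (-2.61), between 143 and 173, and GATA2 between 163 and 257. Their part in the RIP values of the members was not tested.

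Genes with the most similar pattern over the 9 libraries were sought among 11859 genes with a symbol, at least 50 counts on average and no 0, by Pearson's r of log2 CPM. For FCGR2C they were BANK1 (0.992), CDCA7L (0.991) and BATF3 (0.989). All of these were, like FCGR2C, lowest in shBCLAF1 and highest in RIP; BATF3, for example, measured 14.4 ± 0.658 CPM in shCONTROL, 4.11 ± 0.279 in shBCLAF1 and 32.6 ± 4.06 in RIP (SD, n = 3 each). For FCER1G they were RPP25L (0.993), FUOM (0.991) and THEM6 (0.989), for FCGRT ADPRS, SORBS3 and YIPF2 (0.993 each), and for SYK TACC1 (0.981), SH3BP5L and DUSP22 (0.979 each). For FCGR1A they were the pseudogene RPS20P14 (0.976), SHLD1 and ACSS2 (0.958 each). FCGR2A had the lowest best match of the 6 members, GFM2 (0.936), followed by TMEM254 (0.911) and LINC02245 (0.909). All of these shared with FCGR2A a low shCONTROL replicate 3. In shCONTROL, GFM2 held 1314, 1229 and 769 counts, TMEM254 208, 200 and 12, and LINC02245 143, 198 and 61. These values rest on 9 points in 3 groups and carry no test.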

How the data were processed

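Total RNA depleted of ribosomal RNA was sequenced in paired reads of 50 bases from stranded libraries, per the labels' protocols. The authors deposited expected counts per gene (estimated counts, whole numbers, no normalization); the submitters' processing notes name STAR 2.7.11b, StringTie 2.2.3 and hg38, and the annotation is not given in the sources used here. An entry that names no gene held 2.18% to 3.75% of the counts in 8 libraries and was left out.

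Each comparison was fitted on its 6 libraries with edgeR 4.0.16 in R 4.3.3 (default low-count filter, TMM, quasi-likelihood F-test on group, prior count 0.125), with Benjamini-Hochberg adjustment over all genes and a threshold of 0.05. CPM used TMM over 9 libraries; SE came from the coefficient and its F statistic. Alternatives were edgeR with the size factors of DESeq2, total counts, the DESeq2 1.42.0 test, other filters, 1 fit of 9 libraries, a replicate block and leaving out each library, 13 per comparison. The fits were tested on simulated data.

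Members and gene lists were chosen with earlier results of these data known. Named were all members, fixed partners (LYN, FGR, INPP5D, PTPN6, TYROBP and B2M), and per list up to 3 genes per direction with the smallest adjusted p, groups that did not overlap and a mean of at least 10 counts; other genes named were chosen after their values were seen, and some genes are not reported here. Sequences are from RefSeq, GRCh38.p14.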

Additional observations from a re-analysis of the deposited data

How the results depend on the processing

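Over the 13 alternatives of each comparison, members kept their direction, FCGR2A after knock-down excepted: its log2 fold change was 0.04 with total counts and 0.09 with the replicate block, and ran from -0.34 to 0.21 with 1 library left out. Also turning sign were B2M after knock-down (-0.00222 without shBCLAF1 replicate 1, up to 0.13 with other libraries left out), PTPN6 after knock-down (-0.00703 without shBCLAF1 replicate 1, up to 0.05) and FGR in the RIP (0.14 without RIP replicate 3, down to -0.25). The cause was not tested. Of the 5 members counted (FCGR2C left out), 2 were called after knock-down, 3 with DESeq2, 1 with the replicate block and 1 to 2 with a library left out; 2 were called in the RIP, 3 without shCONTROL replicate 3 and 4 with no minimum fold. In all, 2625 genes were higher and 2859 lower after knock-down, or 1129 and 1318 in a single fit of 9 libraries; with total counts more were higher (3244) than lower (2486). In the RIP 1853 were enriched and 2281 depleted, or 4107 and 4124 with no minimum. In the single fit, 3 proximal kinases and adaptors were lower (11 in the fit of 6 libraries), and 3 inhibitory genes were higher and 1 lower (6 and 3). With total counts the median RIP change of all genes shifted by -0.12, with 1488 enriched and 2640 depleted. Deviations of same-numbered replicates from their group means correlated at -0.003 to 0.101 after knock-down and -0.033 to 0.008 in the RIP. Those of differently numbered replicates correlated at -0.054 to 0.054 and -0.058 to 0.058. So few pairs cannot settle whether replicate numbers pair the libraries. With the replicate number as a block, 2271 genes were higher and 2538 lower after knock-down, and 1597 were enriched and 1879 depleted in the RIP. FCGR2B, with counts in 1 library, could not be tested.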
